A study of Bos taurus with 6 samples.

Results

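The small leucine-rich proteoglycans are a family of secreted proteins of the extracellular matrix. Their core is a curved stack of leucine-rich repeats, and most of them carry sulphated sugar chains. They bind the surface of collagen fibrils and influence how thick the fibrils grow and how they are spaced. Several also bind growth factors such as transforming growth factor beta. In skeletal muscle they are made mainly by the fibroblasts of the connective tissue sheaths, and they are abundant in tendon and fascia. The members examined were decorin (DCN), lumican (LUM), biglycan (BGN), fibromodulin (FMOD), osteoglycin (OGN), asporin (ASPN) and PRELP, and every probe set that the platform annotation assigns to 1 of these symbols alone was taken. This gave 9 probe sets for the 7 genes, out of 24128 probe sets on the array and 9155 genes named by a single symbol. BGN and PRELP had 2 probe sets each, and the others had 1.

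The samples were longissimus dorsi, a loin muscle that runs along the spine, from male Chinese Red Steppe cattle aged 1 month or 24 months. RNA of 3 bulls was mixed into each pool, and 1 Affymetrix bovine array was run per pool, which gave 3 pools per age from 18 bulls, all on a standard diet and without any treatment. The pools are numbered as in the labels, 1, 2 and 3 at 1 month and 2, 3 and 4 at 24 months. A difference between single bulls inside a pool could not be measured, and in whole muscle fewer cells of a type and less RNA per cell cannot be told apart. The muscle identity of the samples was borne out by ACTA1, CKM, MYH1, MYH7, TNNT1, TNNT3 and DES, the 7 fibre markers on the array, all detected on all 6 arrays.

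The 1-month pool 1 stood apart from the other pools in connective tissue genes, so the change of each tested proteoglycan is given with and without it. Values are deposited linear intensities, each with a present or absent detection call. Changes are differences of log2(intensity + 16), 24 months minus 1 month, from a limma fit over 13204 probe sets called present on at least 3 arrays, with the standard error after ±. A change was called at an adjusted p under 0.05. Of the 9 proteoglycan probe sets 7 passed this filter, for every gene but BGN. The number of arrays limits the precision, and intensities of different probe sets cannot be set against each other.

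Of the 7 tested proteoglycan probe sets 1 changed with age, a PRELP probe set that fell, and 0 rose. Over all tested probe sets 19.0% were called, of which the share that fell was 4.99% and the share that rose 14.0%. The fitted change was below 0 for 7 of 7, against 44.3% of all tested probe sets, with a median of -0.62 against 0.06. Without 1-month pool 1 it was below 0 for 4 of 7, with a median of -0.21 against 0.09, and 2 of 7 fell, PRELP and OGN, where 19.9% of all tested probe sets were called, 5.42% as lower and 14.5% as higher. In that pool 6 of the 7 tested probe sets had their highest value, as did 8 of all 9, against 23.5% of all tested probe sets. In 4 of the 7 the pool lay at least 2-fold above the next array, which was so for 2.80% of all tested probe sets. These were DCN, FMOD, OGN and the brighter PRELP probe set.

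**Figure D1:**
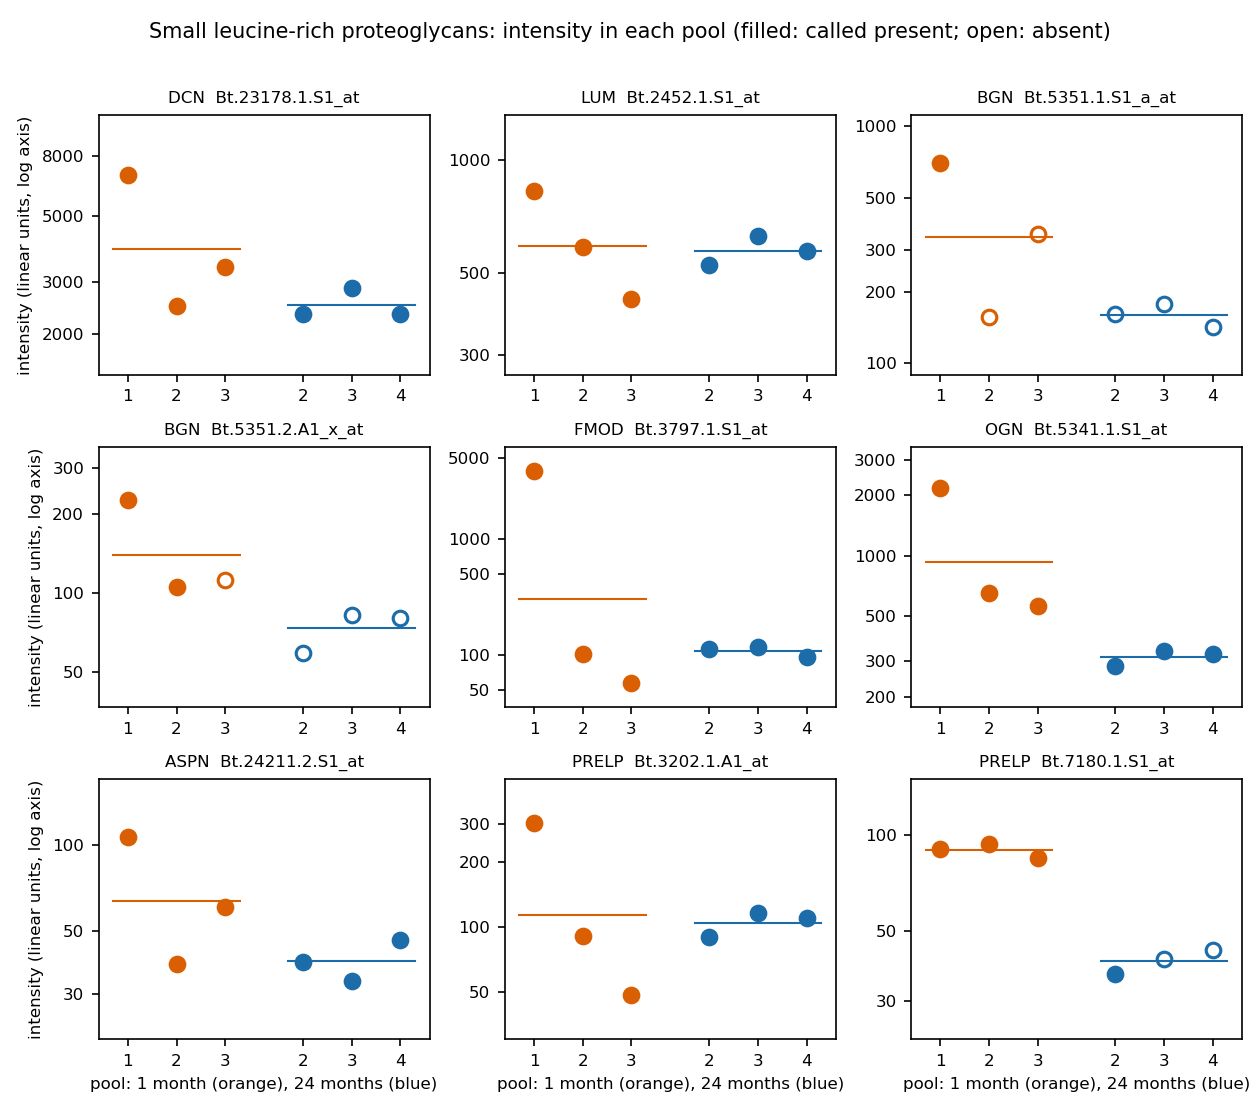
Intensity (log axis, linear units) of the 9 probe sets in each pool, 1 month in orange and 24 months in blue; filled points were called present, open points absent, and the line is the back-transformed mean of log2 values of the 3 pools. The 1-month pool 1 is the highest point in 8 of the 9 panels, while the 24-month pools lie within 1.40-fold of each other in every panel.

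The 3 pools of the older bulls were close to each other. Their highest value exceeded their lowest by 1.19-fold to 1.40-fold over the 9 probe sets, and 91.6% of all tested probe sets stayed within 1.5-fold at this age. The 1-month pools spread more. For 5 of the 7 tested probe sets they spanned more than 2-fold, against 21.2% of all tested probe sets.

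Decorin, biglycan and asporin form the first class of the family. Decorin and biglycan carry chondroitin or dermatan sulphate chains, whereas asporin has a stretch of aspartates near its start and usually no chain. DCN, which binds fibrillar collagen, transforming growth factor beta and myostatin, had intensities of 6892, 2494 and 3368 in 1-month pools 1, 2 and 3. At 24 months the pools gave 2345, 2875 and 2334. Pool 1 was 2.05-fold above the next array, 1-month pool 2 lay within the range of the older bulls, and the ages overlapped. The change was -0.62 ± 0.35 (limma adjusted p = 0.249, 95% interval -1.46 to 0.21) and -0.21 ± 0.18 without pool 1 (adjusted p = 0.449).

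ASPN, which competes with decorin for collagen and also binds transforming growth factor beta, was present on all arrays at low intensity. Its values were 107, 38.1 and 60.7 at 1 month. At 24 months they were 38.8, 33.2 and 46.2. The ages overlapped through 1-month pool 2, and pool 1 was 1.76-fold above the next array. The change was -0.53 ± 0.29 by limma (adjusted p = 0.233), and -0.22 ± 0.20 without pool 1 (adjusted p = 0.448).

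BGN, the close relative of decorin encoded on the X chromosome, had no present call at 24 months on either probe set and was not tested. On the probe set with the suffix _a_at the 1-month intensities were 700 with a present call in pool 1, and 157 and 350 with absent calls in pools 2 and 3. The deposited detection p-values of these 3 values were 0.00806, 0.432 and 0.334. The older pools gave 161, 178 and 142, so the ages overlapped. On the other, with the suffix _x_at, which marks probes that can match other sequences too, pools 1 and 2 were called present at 226 and 106, and pool 3 was absent at 112. The older pools lay at 59.0, 82.6 and 80.9, below every 1-month pool.

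An absent call gives only an upper bound, and for BGN such calls fell at both ages. No lower bound of its difference therefore follows. By the difference of mean log2 values, taken with the constant of the fits still added, the first BGN probe set was 2.03-fold lower at 24 months. Without 1-month pool 1 no ratio is given, since the remaining values were all called absent. The second was 1.74-fold lower, and 1.39-fold lower without that pool, then with 1 of 2 1-month arrays called present. These ratios use the measured values plus that constant, absent calls included, and leave out the error. The lowest present value on an array was at most 4.74, below every BGN value, so it set no limit here. With all pools the ratios rest on 1 and 2 detected 1-month arrays of the 3. When the filter on dim probe sets was dropped, limma gave -1.02 ± 0.46 (adjusted p = 0.178) and -0.80 ± 0.27 (adjusted p = 0.0962).

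Lumican, fibromodulin and PRELP belong to the second class, whose members other than PRELP carry keratan sulphate. LUM, which limits the growth of collagen fibrils, had intensities of 829, 584 and 425 at 1 month. The older bulls gave 523, 627 and 570. These values lay inside the range of the 1-month pools, and pool 1 was 1.32-fold above the next array. The change was -0.05 ± 0.24 (limma adjusted p = 0.910), with a 95% interval of -0.61 to 0.52. Without pool 1 it was 0.19 ± 0.18 (adjusted p = 0.468, interval -0.24 to 0.62).

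FMOD, which shares a collagen binding site with lumican and is a typical product of tendon cells, differed most between pools. It stood at 3865 in 1-month pool 1. The other 1-month pools gave 101 and 56.9, and the older pools 112, 117 and 96.5. Pool 1 was thus 33.0-fold above the next array and 67.9-fold above the lowest, and the ages overlapped, with present calls on all 6 arrays. In the second table that the authors deposited for the same arrays, pool 1 had 4412 and the other arrays 25.8 to 58.3, a ratio of 75.7 to the next. The fitted age change was -1.37 ± 1.37 (limma adjusted p = 0.511, interval -4.62 to 1.88). It turned to 0.42 ± 0.22 without pool 1 (adjusted p = 0.218, interval -0.12 to 0.97).

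PRELP, which carries no sugar chain of this kind and links basement membranes to the surrounding collagen, gave different pictures on its 2 probe sets. On the brighter one the 1-month pools had 301, 90.6 and 48.7. The 24-month pools had 89.6, 116 and 111. Pool 1 was 2.60-fold above the next array and the ages overlapped. The change was -0.10 ± 0.53 (limma adjusted p = 0.908) and 0.54 ± 0.24 without pool 1 (adjusted p = 0.155).

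On the dimmer PRELP probe set the 1-month pools agreed closely, at 90.4, 93.9 and 84.9, all present. The older pools were at 36.5, 40.8 and 43.5, with 1 present call of 3. Every 1-month pool was above every older pool, and pool 1 was not the highest. Over all tested probe sets 16.1% had all 1-month pools above all older ones. This probe set fell by 0.91 ± 0.12 (limma adjusted p = 0.00593), or 1.88-fold on the scale with the added 16. Without pool 1 it gave -0.91 ± 0.13 (adjusted p = 0.0108). The call held whichever array was left out, with adjusted p from 0.00464 to 0.0399. It was lost in the second deposited table, with changes of -0.72 and -0.78 (adjusted p = 0.0518 and 0.0583 by limma). The log2 ratio of 3' to 5' actin signal as a covariate and the replicate number as a block also ended it, with -0.83 and -0.95 (adjusted p = 0.0865 and 0.0852).

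OGN, the third-class member also known as mimecan, which takes part in the assembly of collagen fibrils, was the other tested member whose ages did not overlap. The 1-month intensities were 2168, 655 and 561. The 24-month pools had 284, 337 and 325. Pool 1 was 3.31-fold above pool 2, but pools 2 and 3 were also above all older pools, as they were for 20.0% of all tested probe sets. The change over all arrays was -1.52 ± 0.48 (limma adjusted p = 0.0673, interval -2.64 to -0.39). Without pool 1 OGN fell by 0.91 ± 0.14, or 1.88-fold on the scale used for PRELP (adjusted p = 0.0129, interval -1.26 to -0.56). It was also called without 1-month pool 3 (-1.87, adjusted p = 0.0296), and with limma's array weights (-1.46, adjusted p = 0.0208). It was not called without 1-month pool 2 (-1.76, adjusted p = 0.0729) or without any one of the 24-month pools (-1.45 to -1.56, adjusted p from 0.169 to 0.189). Nor was it called in the second table (-1.65 and -1.73, adjusted p = 0.0780 and 0.0617) or with the replicate block (-0.93, adjusted p = 0.0966), and with the actin ratio as a covariate its sign turned to 0.40.

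**Figure D2:**
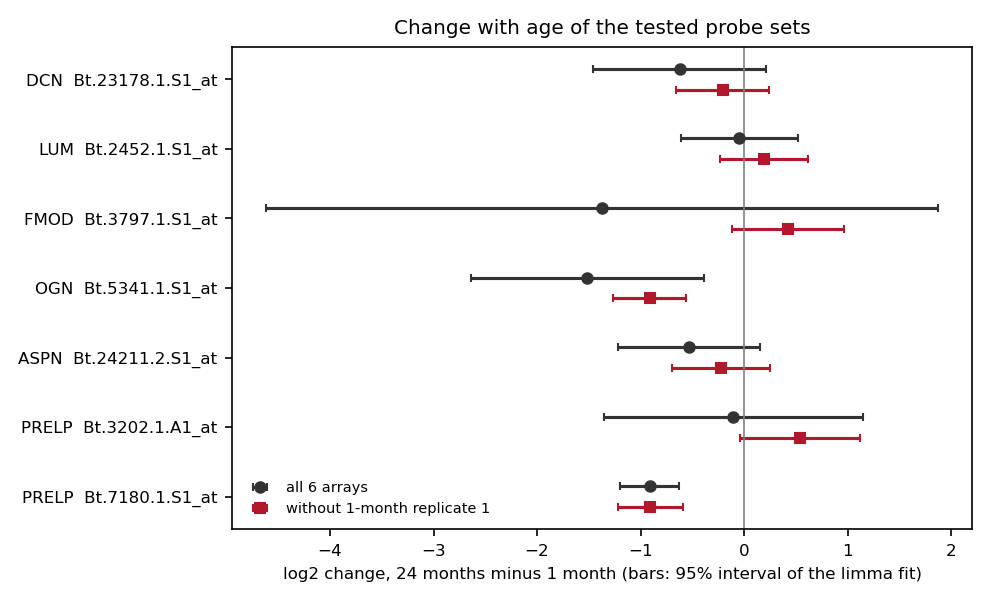
Change with age (log2, 24 months minus 1 month) of the 7 tested probe sets, over all 6 arrays (black circles) and without 1-month pool 1 (red squares), with 95% intervals of the limma fits. Leaving out that pool moved FMOD from -1.37 to 0.42 and narrowed its interval, while the dimmer PRELP probe set gave -0.91 both times.

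The 6 tested members were compared in pairs by the difference of their log2 values within each array, on the brightest probe set of each. The change of LUM minus that of OGN was 1.47, and that of DCN minus OGN was 0.89. The change of OGN minus that of ASPN was -0.98, and that of OGN minus PRELP was -1.41. These were the 4 of 15 pairs with the smallest two-sided exact permutation p that 3 against 3 arrays allow, 0.1, and adjusted over the pairs it was 0.375. This test cannot pass 0.05 with so few arrays, and no other test of the pairs was run.

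Most members lie beside another member in the genome, in the gene order of the RefSeq annotation of assembly ARS-UCD2.0. LUM and DCN are neighbours and follow EPYC and KERA. FMOD is followed by PRELP and OPTC, and OGN, OMD, ASPN and ECM2 follow each other, while BGN follows ECMX on the X chromosome. Neighbours differed in how far 1-month pool 1 exceeded the next array. The ratio was 33.0 for FMOD and 2.60 on the brighter PRELP probe set, and it was 3.31 for OGN and 1.76 for ASPN. It was 1.32 for LUM, 2.05 for DCN and 13.6 for KERA.

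KERA, keratocan, a keratan sulphate relative of lumican best known from the cornea, was detected on all 6 arrays. It had 2786 in 1-month pool 1, 149 and 204 in pools 2 and 3, and 69.6, 127 and 87.3 in the older pools. The change was -2.11 ± 1.00 by limma (adjusted p = 0.179), and -0.82 ± 0.25 without pool 1 (adjusted p = 0.0674). Among the other family members on the array EPYC, OMD and OPTC had no present call on any array. CHAD, chondroadherin of cartilage, was called present in 1-month pool 1 alone, at 322. Of the 3 tested relatives (KERA, TSKU and LRRC17) 1 fell and 0 rose, where of all genes, on their brightest tested probe set, 17.0% were called, 5.73% as lower and 11.3% as higher. That was TSKU, tsukushi, by 0.58 ± 0.14 (limma adjusted p = 0.0335), with -0.51 ± 0.14 and no call without pool 1 (adjusted p = 0.0554).

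The collagens that the proteoglycans bind showed the same standing of 1-month pool 1. All 6 tested partner collagens, on their brightest probe set, had their highest value there, and for 5 of them it was at least 2-fold above the next array, against 24.8% and 3.05% of all genes. COL1A1 was at 4604 in that pool and between 349 and 498 elsewhere, and COL12A1, a collagen on the surface of tendon and fascia fibrils, was at 2167 and between 32.6 and 152 elsewhere. COL1A1 had no present call at 24 months on this probe set, so it passed the filter through the 1-month pools alone. COL3A1 hardly stood out, at 2699 against 2631 in 1-month pool 3. None of the 6 was called over all arrays (0 rose and 0 fell by limma), and their median change was -1.06, against 0.03 over all genes. Without pool 1 the median was -0.33 and, on the brightest probe sets, COL12A1 alone was called as lower (-1.32 ± 0.22, limma adjusted p = 0.0146). Of all genes 6.57% were then called as lower and 12.3% as higher. Dimmer probe sets of these genes differed. Without pool 1 the dimmer tested one of COL12A1 gave -0.35 ± 0.25 (limma adjusted p = 0.364). That of COL1A2 was called as lower (-1.50 ± 0.33, adjusted p = 0.0291).

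Several marker genes of tendon and of cartilage were also highest in 1-month pool 1. TNMD, tenomodulin, which marks tendon cells, was at 1490 there and between 5.73 and 16.1 on the other arrays. THBS4 and COMP, matrix proteins of tendon, were at 4527 and 498, and at most 573 and 91.8 elsewhere. TNMD and COMP had no present call at 24 months. TNC stood out less, at 287 there and at most 194 elsewhere. With it the 4 tendon genes on the array summed to 6802 in that pool and to 529 to 722 on the others. Such sums weigh the brightest genes most, here THBS4. They can include values called absent and do not measure tissue content. Of the cartilage genes COL11A1 and COL2A1 were at 2027 and 1015 on their brightest probe sets, and at most 39.3 and 30.2 elsewhere, where none of these values was called present. The 5 cartilage genes on the array summed to 3244 against 170 to 231, while MATN1 and COL9A1 had no present call in pool 1. The part of these tissues in the proteoglycan values was not tested.

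**Figure D3:**
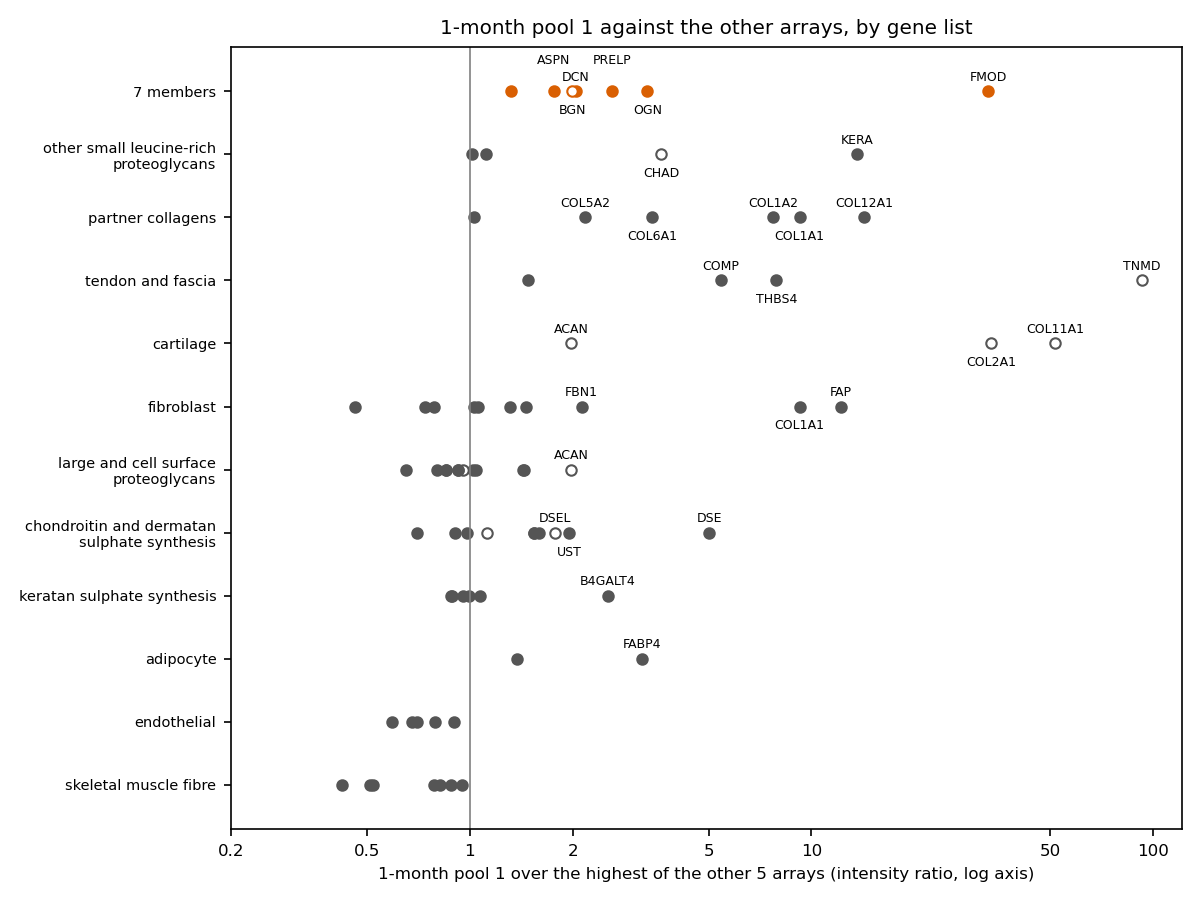
Intensity of 1-month pool 1 over the highest of the other 5 arrays (log axis) for the genes of each list, on each gene's brightest probe set called present in that pool; filled points are probe sets that were tested, open points are not, and the 7 members are in orange. FMOD (33.0), KERA (13.6), COL12A1 (14.3), COL11A1 (51.6), COL2A1 (33.6) and TNMD (92.8) lie farthest to the right, while the fibre and endothelial markers lie below 1.

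Fibroblast markers did not move as one. FAP, a protease of activated fibroblasts, was at 930 in 1-month pool 1 and at most 76.2 elsewhere, and FBN1, fibrillin, at 1162 against at most 547. PDGFRA was at 262 against at most 200. The 11 fibroblast genes on the array summed to 11742 in that pool and to 4194 to 5454 on the others. Of 10 tested 1 rose and 0 fell. Of all genes 5.73% were called as lower and 11.3% as higher, or 6.57% and 12.3% without pool 1. These shares also stand beside the other marker counts of this paragraph. THY1, a surface protein of fibroblasts and other cells, rose by 1.07 ± 0.15 (limma adjusted p = 0.00658), and by 1.17 without pool 1 (adjusted p = 0.00778). The 5 tested endothelial markers and the 7 fibre markers were never highest in pool 1. Of the 7 fibre markers 3 rose and 0 fell, both with and without that pool, with a median change of 0.48 over all arrays. MYH7, the myosin of slow fibres, rose by 1.13 ± 0.12, the slow troponin TNNT1 by 0.83 ± 0.12 and the fast troponin TNNT3 by 0.48 ± 0.13 (limma adjusted p = 0.00407, 0.00733 and 0.0459). The fibre markers summed to 43265 to 47958 at 1 month and 59256 to 60051 at 24 months. Of the endothelial markers PECAM1, on its brightest probe set, and TEK fell with age, by 0.70 ± 0.19 and 0.80 ± 0.18 (limma adjusted p = 0.0428 and 0.0272). Without pool 1 they gave -0.76 and -0.89 (adjusted p = 0.0517 and 0.0280). The dimmer tested probe set of PECAM1 was not called, with -0.26 ± 0.25 (limma adjusted p = 0.493), and -0.46 without pool 1 (adjusted p = 0.198). Of 5 tested pericyte and smooth muscle markers 1 fell, RGS5 of pericytes, by 0.93 ± 0.25 (limma adjusted p = 0.0423), and it was also called without pool 1. Of 3 adipocyte markers 1 rose, CIDEA, a lipid droplet protein, by 0.73 ± 0.14 (limma adjusted p = 0.0147). CIDEA had no present call at 1 month, so it passed the filter through the 24-month pools alone. Without pool 1 CIDEC was called as higher as well. Of 4 leukocyte markers 0 were called by limma, and 1 rose without pool 1, CD14 of monocytes (0.78, adjusted p = 0.0175). With that pool left out, CD14 had no present call at 1 month. The 1 tested erythroid marker, HBB, a haemoglobin chain, fell by 4.38 ± 1.02 (limma adjusted p = 0.0291). It gave -3.71 ± 1.05 without pool 1 (adjusted p = 0.0556). HBB was detected in the young bulls only, at 2403, 2405 and 132 in 1-month pools 1, 2 and 3. The older values, 29.0 to 30.9, were all undetected, so the size of this fall is uncertain. The dimmer tested HBB probe set was not called, with -2.13 ± 0.68 (limma adjusted p = 0.0717).

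RNA quality differed between the ages as well. The log2 ratio of 3' to 5' actin signal, which rises with degraded or short-labelled RNA, was 0.85, 0.69 and 0.46 in 1-month pools 1, 2 and 3 and 0.22 to 0.26 in the older pools (two-sided exact permutation p = 0.1, the smallest possible). The pool with the highest proteoglycan values thus had the highest ratio. With this ratio as a covariate the fitted change of every tested member probe set but the dimmer PRELP one turned to above 0. The ratio did not overlap between the ages, so this fit cannot tell age and RNA quality apart.

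The shares of all genes given above, 5.73% lower and 11.3% higher, also stand beside the counts of the enzymes that build the sugar chains. Of 9 tested genes of chondroitin and dermatan sulphate synthesis 1 fell and 0 rose, with a median change of -0.41, and 0 were called without 1-month pool 1. CHST7, a chondroitin sulphotransferase, fell by 0.46 ± 0.13 on its brightest probe set (limma adjusted p = 0.0488), with -0.48 ± 0.14 and no call without that pool (adjusted p = 0.0601), and its 2 other tested probe sets gave 0.23 and 0.14. DSE, which turns chondroitin into dermatan sulphate as found on decorin and biglycan, was at 176 in that pool and at most 35.1 elsewhere. Of 6 tested keratan sulphate genes and 5 genes that supply activated sugars and sulphate, 0 were called on the brightest probe sets (limma adjusted p under 0.05). Their medians were -0.22 and -0.15. ST3GAL2, of the keratan sulphate list, gave 0.25 there. On its dimmer tested probe set it rose by 0.44 ± 0.12 (limma adjusted p = 0.048), with 0.47 and no call without pool 1 (adjusted p = 0.0504). B4GALT4, a galactosyltransferase that acts on keratan sulphate, was 2.54-fold higher in pool 1 than on the next array.

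Of 10 tested large and cell surface proteoglycans 2 fell and 0 rose, with a median of -0.19, where 17.0% of all genes were called. These were the glypicans GPC1, by 0.85 ± 0.16 (limma adjusted p = 0.0147), and GPC3, by 1.20 ± 0.32 (adjusted p = 0.0429), and GPC3 gave -1.06 ± 0.36 without 1-month pool 1 (adjusted p = 0.0842). Without that pool the counts were 1 lower, GPC1 (-0.91, limma adjusted p = 0.0188), and 1 higher, SDC2, a syndecan (1.27 ± 0.26, adjusted p = 0.0253). Of all genes 6.57% were then called as lower and 12.3% as higher. Of 3 tested proteases of the family 1 fell and 0 rose, with and without pool 1. The shares of all genes were 5.73% lower and 11.3% higher, or 6.57% and 12.3% without pool 1. The protease that fell was MMP2, a gelatinase, by 0.91 ± 0.23 (limma adjusted p = 0.0350), and by 0.70 ± 0.18 without pool 1 (adjusted p = 0.0454). Of 8 tested growth factors and receptors that the family binds 1 fell and 1 rose, against 5.73% and 11.3% of all genes, and both were called without pool 1 as well. TGFBR2, the type II receptor of transforming growth factor beta, fell by 1.05 ± 0.25 (limma adjusted p = 0.0331), and by 0.82 without pool 1 (adjusted p = 0.0464). MET, the receptor of hepatocyte growth factor, to which decorin also binds, rose by 0.56 ± 0.12 (adjusted p = 0.0240), and by 0.50 without pool 1 (adjusted p = 0.0366).

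Genes with the profile most like that of a member were found by Pearson's r of log2 values over the 6 pools. The search covered 8134 tested probe sets of named genes other than the members, with relatives such as KERA kept in. The closest to DCN were COL12A1 on a dim probe set (r = 0.998) and LASP1, an actin-binding protein (r = 0.992). ANXA5, annexin A5 (r = 0.999), and TMED3, a cargo protein of the secretory pathway (r = 0.997), were closest to FMOD. For OGN they were MAGEH1 and POLR3B (r = 0.998 and 0.997), and for ASPN IL13RA1, an interleukin receptor chain, and DPYSL2 (r = 0.996 and 0.989). For LUM they were ARHGEF2 and SLC35B2, the Golgi transporter of activated sulphate (both r = 0.985). SLC35B2 was also near the brighter PRELP probe set (r = 0.990), after SCPEP1, a carboxypeptidase (r = 0.994). All these genes had their highest value in 1-month pool 1, as the members they are likened to did. Between 29 and 188 of the probe sets exceeded an r of 0.95 with each member, so that the first places are close to many others.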

How the data were processed

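The main table, named for dChip, holds linear intensity values that the authors normalized before they deposited them, with detection calls on all arrays and, for the 1-month arrays, a deposited detection p-value. For probe summary, background and detection calls the method was not given in the sources used here. Another table deposited for the same arrays also gives linear intensity, of unknown scale (medians 15.4 to 21.2). Columns were matched by title. Probe sets were named from the platform annotation (13292 with 1 symbol, 86 with several, 10638 with none, 112 controls), and all 9 of the members matched RefSeq (ARS-UCD2.0) by gene identifier. The log2 medians differed by 0.0308, under the limit of 0.2, so no normalization was added. limma 3.58.1 in R 4.3.3 (lmFit, eBayes) was fitted without covariates on log2(intensity + 16), two-sided, Benjamini-Hochberg over 13204 probe sets, and checked on simulated data. Adding 16 understates changes of dim probe sets. Replicates are pools of different bulls, so p-values measure the spread between pools.

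The members and lists were chosen with earlier results of these data known. All member probe sets are named. From each list the called genes with the smallest p are named, at most 4 with values, and for each member the 2 most alike genes. Genes named for their level in 1-month pool 1, and uncalled list genes, were chosen after their values were seen. Lists were counted on each gene's brightest tested probe set, and summed over the brightest on the array. Alternatives were other normalizations, offsets, filters, variance priors, array weights, the second table, the actin ratio, a replicate block and each array left out.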

Additional observations from a re-analysis of the deposited data

How the results depend on the processing

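The 1 call among the 7 tested proteoglycan probe sets became 0 with a filter for presence on all 6 arrays, which leaves the called PRELP probe set out, 0 in the second table with and without quantile normalization, 0 with the replicate block and 2 with array weights. It was 1 to 2 with an array left out. Over all probe sets 2513 calls became 1641 and 1169 in the second table, 996 with the actin covariate, 129 with the replicate block, and 526 to 3476 with an array left out. The dimmer PRELP probe set kept its direction in all 17 fits that tested it but lost its call in 4: both of the second table (-0.72 and -0.78), the actin covariate (-0.83, adjusted p = 0.0865) and the replicate block (-0.95, adjusted p = 0.0852). The actin covariate turned DCN to 0.31, LUM to 0.91, FMOD to 4.41, OGN to 0.40, ASPN to 0.11 and the brighter PRELP probe set to 2.23, of which only PRELP was called (limma adjusted p = 0.0457); the cause was not tested. The replicate block turned LUM to 0.19, FMOD to 0.50 and PRELP to 0.51. With an array left out LUM ranged from -0.28 to 0.19, FMOD from -2.44 to 0.42 and PRELP from -0.61 to 0.54. Calls among the listed genes rested on single arrays too: the other family members had 0 limma calls with any array but 1-month pool 3 left out and 2 without that one, and with an array left out the calls numbered 0 to 2 among the large proteoglycans, the proteases and the growth factors and receptors, and 0 to 3 among the endothelial markers. The ages share only the numbers 2 and 3, whose pools' deviations correlated at -0.18 and 0.04, so the number was not taken as a pairing. Signal over background limits BGN.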

Other observations

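Several other listed genes also differed between the 1-month pools. MSTN, myostatin, is a growth inhibitor that decorin binds. On its brighter probe set it had 400 and 256 in 1-month pools 1 and 2, 18.8 in pool 3 and 117 to 138 in the older pools. The dimmer one gave another picture, at 46.4, 52.2 and 16.4 at 1 month and 72.5, 97.2 and 72.4 at 24 months. Its change was 0.89 ± 0.29 (limma adjusted p = 0.0755). MYH11 and ACTA2, contractile proteins of smooth muscle, were highest in 1-month pool 3, at 589 and 1307, against at most 267 and 828 on the other arrays. FABP4, the fatty acid carrier of fat cells, was at 2021 in 1-month pool 1, 68.1 and 408 in pools 2 and 3, and 435 to 634 in the older pools.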
